A study of Mus musculus with 6 samples.

Results

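The genes described here encode the acid hydrolases of the mouse lysosome, the membrane proteins of that organelle, the proton pump that acidifies it and a pair of its transcriptional regulators. They were listed by name, 45 in all, and each was read from its brightest Affymetrix probe set carrying a single gene symbol. That gave values for 43 of 18193 named genes on the array; Cd63 and Atp6v0c had no such probe set and were not analysed here. The cells were C57BL/6J mouse bone marrow KSL cells, that is c-Kit+Sca-1+Lin- cells, the surface gate of blood stem and early progenitor cells. Both groups were grown on endothelial cells of the human umbilical vein for 7 days with 5 types of mouse cytokines in medium without serum, with PBS in the control group and mD1R in the other, and KSL cells were then sorted again before RNA extraction. The labels give mD1R no longer name. From the published study it is known to be an engineered protein that joins the receptor-binding part of mouse Delta-like 1, a ligand of Notch receptors, to a peptide that binds endothelial cells. There were 3 arrays per group, which the labels call biological replicates.

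Lysosomes break down proteins, glycans and lipids with hydrolases, most of which work best at low pH. The V-ATPase, a rotary pump with a membrane-bound V0 sector that carries protons and a cytosolic V1 sector that splits ATP, provides that pH. Many of these genes share a promoter element, called the CLEAR element, that is bound by the related factors Tfeb, Tfe3, Mitf and Tfec. In blood cells lysosomes are prominent in macrophages, and the granules of mast cells and neutrophils are related organelles.

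Values are log2 MAS5 signals as deposited, and signals of different probe sets do not rank genes by RNA level. Array medians lay between 6.07 and 6.42. All 43 genes had mean signals far above the filter on dim probe sets (5.27), from 8.50 for Atp6v0a1 to 14.87 for Psap, so no gene was tested only because it was bright in a single group. Several mature myeloid genes that a Lin- gate should leave out were bright; the neutrophil gene S100a8 had signals from 15.38 to 15.90 with PBS and from 13.80 to 16.03 with mD1R. Kit, a gene of the gate, had 9.97, 8.85 and 9.21 with PBS and 11.37, 11.13 and 9.58 with mD1R, and did not pass, while Ly6a, which encodes Sca-1, was not analysed here. Kit was in a list of stem cell, progenitor and lineage surface markers, of which 7 were tested. Of these, 2 were higher with mD1R, Procr (3.01) and Cd34 (1.98), which are not part of the c-Kit+Sca-1+Lin- gate. Cd3e had the widest difference downward (-1.41) and did not pass. The array of mD1R replicate 3 was the lowest of the 3 mD1R arrays for 32 of the 43 genes and the highest for 0. The same counts were not made over all genes, so they are not shown to be particular to these 43. In these bulk samples more cells of a type and more RNA per cell cannot be told apart.

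With mD1R, 23 of the 43 genes were higher and 0 were lower, against 8.49% higher and 7.09% lower among all 12320 genes tested (limma, Benjamini-Hochberg adjusted p under 0.05). At an unadjusted p under 0.05, 32 of the genes were higher and 1, Tfeb, was lower, against 18.8% and 15.3% of all genes. Among the genes that passed were those of cathepsin K (2.69 ± 0.38, log2 difference and SE, n = 3 per group), the glycosidase gene Naglu (2.63 ± 0.30), the protease gene Lgmn (2.42 ± 0.32) and the pump subunit gene Atp6v0d2 (4.26 ± 1.07). The median log2 difference was 0.82 over the 43 genes and 0.09 over all genes tested, and 41 of the 43 differences were above 0, against 55.5% of all genes. The mD1R arrays all lay above the PBS arrays for 36 genes, against 22.1% of all genes, and all below for 1, against 18.1%. The median fold of the 23 genes that passed was 2.51, and 17 of them rose by at least 1 on the log2 scale.

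The number that passed depended on single arrays. It fell to 9 when PBS replicate 1 was dropped, to 6 when PBS replicate 2 was and to 0 when PBS replicate 3 was. Dropping mD1R replicate 1 gave 19, dropping replicate 2 gave 8 and dropping replicate 3 gave 28. Without PBS replicate 3 no gene tested passed in limma, while 28 of these 43 still had an unadjusted p under 0.05 and were higher, against 13.5% of all genes. The median difference lay between 0.74 and 0.98 in these 6 settings. Glb1, Naglu, Lgmn, Ctsk, Gaa and Lipa lost their call without PBS replicate 3 and kept it in the other 5 settings. A bacterial hybridisation control, BioB, split the arrays into a set with PBS replicate 1 and mD1R replicates 1 and 2 and a set with PBS replicates 2 and 3 and mD1R replicate 3. Within these sets the median differences over the 43 genes were 1.15 and 0.51, and 42 and 38 genes were above 0. Over all 12320 genes the medians were 0.02 and 0.09, and 6310 and 6952 genes were above 0.

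**Figure D1:**
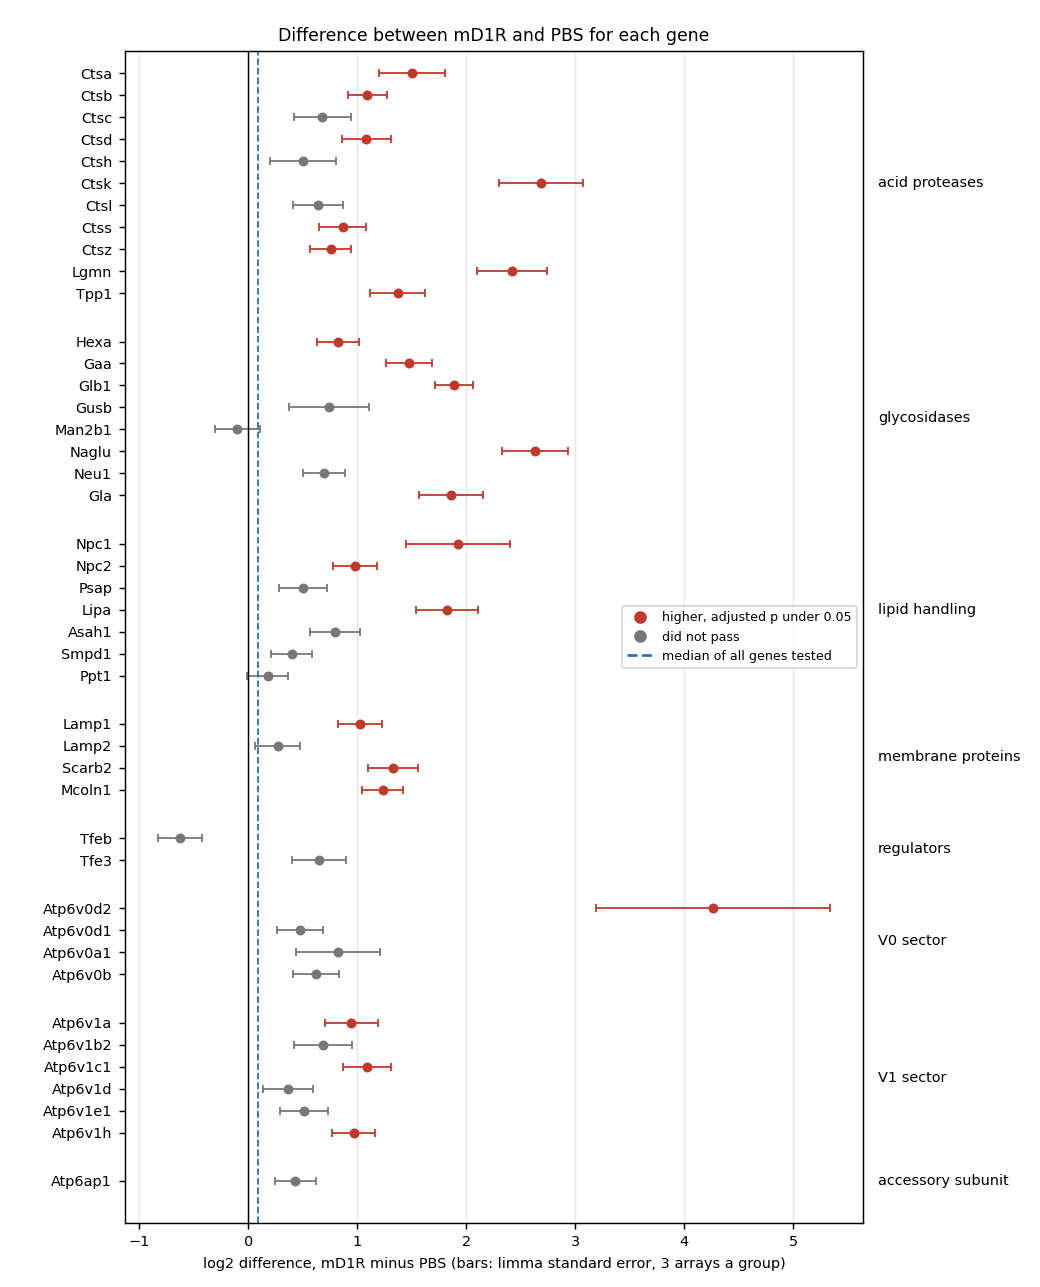
Log2 difference between the mD1R and PBS arrays for each of the 43 genes, grouped by role, with limma standard errors as bars (3 arrays per group). The 23 genes past the threshold are in red, and 41 of the 43 points lie above 0, most of them to the right of the dashed median of all genes tested (0.09).

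Genes that passed were found at every brightness of probe set. Of 12 genes with a mean log2 signal from 8 to 11, 7 were higher, of 17 from 11 to 13, 8 were higher, and of 14 above 13, 8 were higher. Among all genes in the same bands 10.1%, 10.3% and 10.0% were higher. The brightest band had the narrowest range of differences, from 0.27 to 1.09, whereas the dimmest ran from -0.63 to 4.26. These ranges are of the probe sets used. Dimmer probe sets of genes in the brightest band could lie outside its range, such as 2.62 and -0.33 for Ctsb.

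Promoter sequences of 37 of the 45 genes were found in RefSeq (GRCm38.p6), each from 250 bases before to 50 after an annotated start. The letters CACGTG, the E-box core of the CLEAR element and a palindrome that reads the same on both strands, occurred in promoters of 13 of these 37 genes (35.1%), of 8.09% of all 27025 genes in the table and of 11.5% of the genes tested on the array. The longer TCACGTG, searched on both strands and always containing the E-box, occurred in 12 of the 37 (32.4%), against 4.29% of all genes and 6.84% of those tested. TCACGTGA occurred in 6 (16.2%), against 1.12% and 2.14%. CATGTG, on both strands, occurred in 9 (24.3%), against 15.9% and 10.9%. Among 90 other genes of the lysosomal pathway with a promoter, CACGTG occurred in 19 (21.1%). For these 90 the shares were 18.9% for TCACGTG, 6.67% for TCACGTGA and 10% for CATGTG. Of the 13 genes with an E-box 10 were higher with mD1R, and of the 24 without one 8 were. Among all genes tested 8.49% were higher, and the shares of those with and without an E-box were not computed. Whether the E-box went with the call was not tested. The 24 include Cd63 and Atp6v0c, which had no probe set to read and so could not be called. The promoters of Ctsh, Atp6v1h, Asah1, Ctsb, Atp6v0d2, Atp6v1b2, Npc1 and Atp6v1c1 were not in the table. Of these genes Atp6v1h, Ctsb, Atp6v0d2, Npc1 and Atp6v1c1 were higher with mD1R, and Ctsh, Asah1 and Atp6v1b2 did not pass. A match of letters is not evidence of binding.

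The stretches that hold the E-boxes are shown so that their flanks can be compared, 5′ to 3′ on the strand of the gene, with CACGTG in capitals and 15 bases on each side where the promoter extends that far.
Ctsa (chr2:164833746-164833798, plus strand): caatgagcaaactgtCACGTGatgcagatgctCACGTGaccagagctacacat
Atp6v0b (chr4:117887327-117887380, minus strand): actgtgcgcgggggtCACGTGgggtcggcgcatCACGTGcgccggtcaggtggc
Ctsd (chr7:142387905-142387940, minus strand): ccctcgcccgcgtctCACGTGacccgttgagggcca
Lamp1 (chr8:13159085-13159166, plus strand): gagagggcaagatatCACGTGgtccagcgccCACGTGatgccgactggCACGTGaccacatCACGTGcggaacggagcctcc
Atp6v0d1 (chr8:105566047-105566082, minus strand): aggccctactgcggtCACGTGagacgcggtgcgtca
Glb1 (chr9:114401015-114401050, plus strand): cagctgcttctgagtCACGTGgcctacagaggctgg
Naglu (chr11:101070006-101070041, plus strand): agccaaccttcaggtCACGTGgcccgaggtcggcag
Gaa (chr11:119267808-119267843, plus strand): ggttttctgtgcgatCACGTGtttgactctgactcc
Lgmn (chr12:102439121-102439156, minus strand): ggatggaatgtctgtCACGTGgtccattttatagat
Ctsl (chr13:64370736-64370770, minus strand): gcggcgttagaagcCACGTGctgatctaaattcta
Atp6v1a (chr16:44139370-44139405, minus strand): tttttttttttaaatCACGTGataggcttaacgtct
Gla (chrX:134601179-134601247, minus strand): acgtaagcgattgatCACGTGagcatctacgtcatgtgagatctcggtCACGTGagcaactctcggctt
These promoters and that of Mcoln1 held 21 E-boxes, with several in Lamp1, Ctsa, Ctsd, Atp6v0b, Mcoln1 and Gla. Of the 21, 8 had T before and A after the core, 12 had only one of these and 1 had neither. The first base of 14 of them lay within 100 bases before the start. An upstream E-box of Ctsd, at -245 from the start, is not printed.

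The whole promoters of Mcoln1, which has a pair of E-boxes, and of Ctsk, whose gene rose and which has none in this stretch, are shown for contrast.
Mcoln1 (chr8:3500269-3500568, plus strand): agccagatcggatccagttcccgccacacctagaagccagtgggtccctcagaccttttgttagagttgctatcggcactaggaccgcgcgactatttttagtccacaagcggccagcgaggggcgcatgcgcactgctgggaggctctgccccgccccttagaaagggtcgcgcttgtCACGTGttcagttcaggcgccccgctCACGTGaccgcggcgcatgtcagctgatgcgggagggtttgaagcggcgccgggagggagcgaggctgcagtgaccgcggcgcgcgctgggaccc
Ctsk (chr3:95498960-95499259, plus strand): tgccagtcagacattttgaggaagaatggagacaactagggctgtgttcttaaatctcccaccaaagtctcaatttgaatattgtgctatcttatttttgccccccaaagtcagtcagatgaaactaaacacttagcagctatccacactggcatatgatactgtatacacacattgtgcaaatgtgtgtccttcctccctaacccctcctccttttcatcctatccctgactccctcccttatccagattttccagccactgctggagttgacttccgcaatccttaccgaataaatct
The E-boxes of Mcoln1 begin at -71 and -45 from its start. That the Ctsk stretch holds no CACGTG says only that these letters are not in this window.

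Among the acid proteases 8 of 11 genes were higher with mD1R and 0 lower, with a median log2 difference of 1.08. Ctsk encodes cathepsin K, a collagen-degrading cysteine protease best known from osteoclasts. It had signals of 9.85, 9.55 and 9.43 with PBS and of 12.74, 12.81 and 11.33 with mD1R, a rise of 2.69 ± 0.38 (adjusted p = 0.0113). Every mD1R array lay above every PBS array, with replicate 3 the lowest of the mD1R arrays. Lgmn encodes legumain, which cuts after asparagine and matures some cathepsins. Its signals were 11.38, 11.13 and 11.13 with PBS and 14.29, 13.69 and 12.91 with mD1R, a rise of 2.42 ± 0.32 (adjusted p = 0.0109). Ctsa, the protective protein of neuraminidase, had 11.83, 12.11 and 12.15 against 13.77, 14.00 and 12.83 and rose by 1.502 ± 0.30. The groups did not overlap for either gene. Tpp1, a tripeptidyl peptidase, had 11.83, 11.88 and 11.75 against 13.55, 13.38 and 12.64 and rose by 1.37 ± 0.25.

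Cathepsins B, D, S and Z also rose. Ctsb, a cysteine protease found in most cells, had 13.61, 13.75 and 13.61 with PBS and 14.54, 14.97 and 14.73 with mD1R and rose by 1.09 ± 0.18 (adjusted p = 0.0136). Ctsd, the main aspartic protease of lysosomes, had 13.19, 13.80 and 13.65 against 14.38, 14.87 and 14.63 and rose by 1.08 ± 0.22. For both, replicate 2 was the highest mD1R array and the groups were apart. Ctss, an antigen-processing cathepsin of myeloid cells, had 13.96, 14.32 and 14.36 against 14.80, 15.39 and 15.04 and rose by 0.86 ± 0.22. Ctsz, a carboxypeptidase, had 13.86, 14.11 and 14.09 against 14.67, 15.06 and 14.59 and rose by 0.75 ± 0.19 (adjusted p = 0.0405). By the probe sets used this was the smallest rise among the 23 genes that passed. Dimmer Ctsz probe sets rose by 1.57 and 1.61 and passed. Dimmer Ctsb probe sets gave 2.62 and 1.64, which passed, and 1.27 and -0.33, which did not. Ctsc, which activates granule serine proteases, differed by 0.68 ± 0.26, Ctsl by 0.64 ± 0.23 and Ctsh by 0.50 ± 0.30, and none of these passed. Another Ctsl probe set, much dimmer, rose by 1.95. Of these 11 proteases 3 passed when PBS replicate 1 was dropped, 2 when PBS replicate 2 or mD1R replicate 2 was and 0 when PBS replicate 3 was. With arrays centred on their medians 5 passed.

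**Figure D2:**
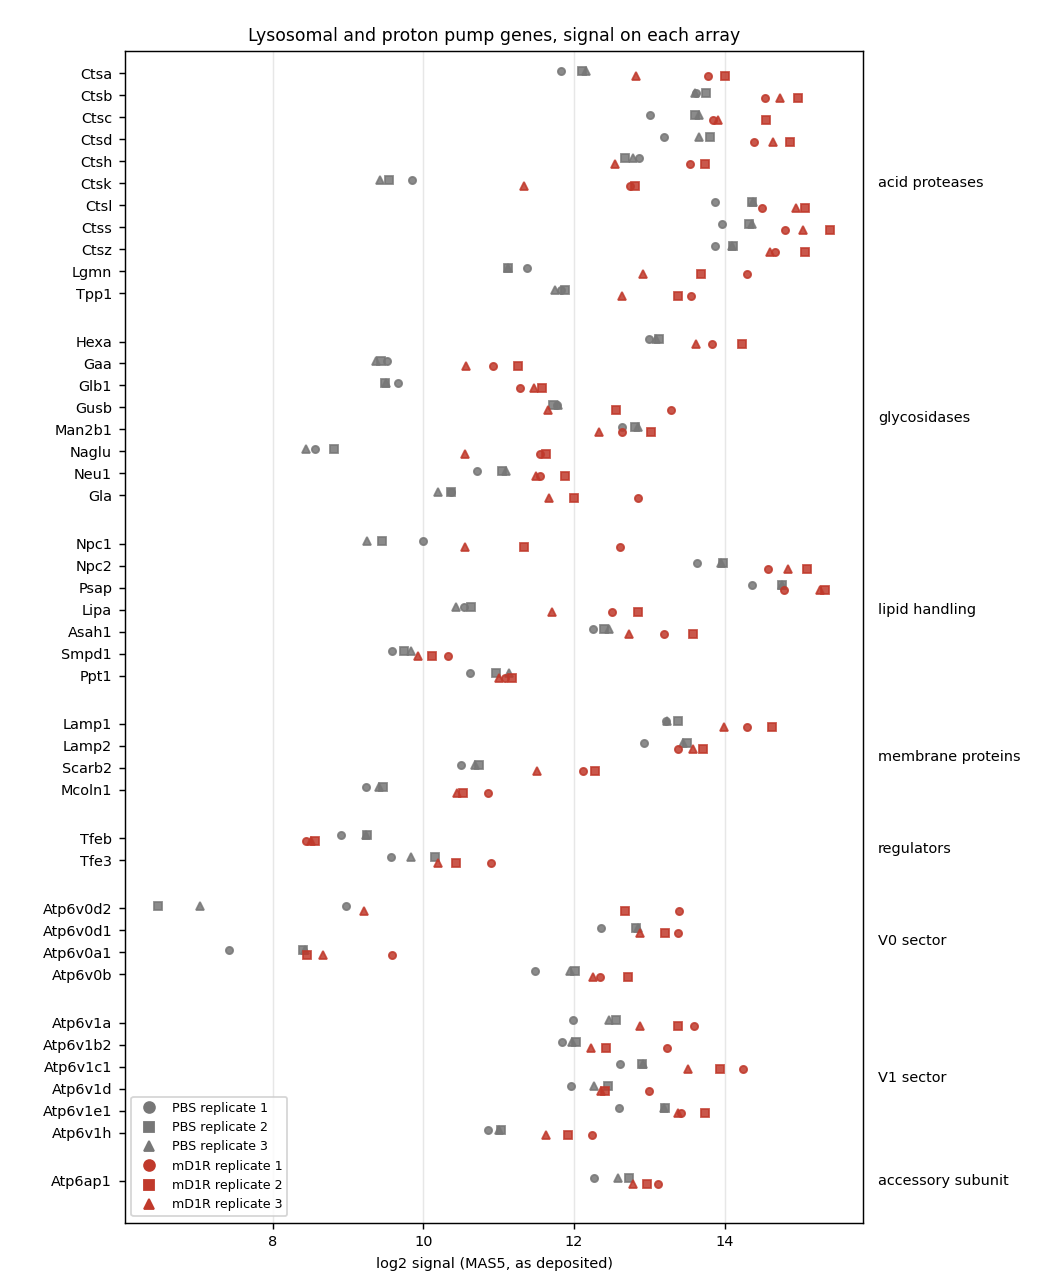
Log2 signal of each gene on each array, PBS in grey and mD1R in red, with a symbol for each replicate number. For 36 genes all mD1R points lie to the right of all PBS points, and for Tfeb they lie to the left.

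Of the 8 glycosidases, enzymes that take sugars off glycoproteins, glycolipids and glycosaminoglycans, 5 were higher and 0 lower (median 1.15). Naglu, which acts on heparan sulfate, had 8.57, 8.81 and 8.45 with PBS and 11.55, 11.63 and 10.55 with mD1R, a rise of 2.63 ± 0.30 (adjusted p = 0.00968). Glb1, the lysosomal beta-galactosidase, had 9.66, 9.50 and 9.51 against 11.28, 11.58 and 11.47, a rise of 1.89 ± 0.17 (adjusted p = 0.00778). Glb1 had the smallest adjusted p of the 43 genes, and its mD1R arrays lay close together. Gla, the alpha-galactosidase, had 10.37, 10.36 and 10.19 against 12.84, 12.0025 and 11.66 and rose by 1.86 ± 0.29. Gaa, the acid glucosidase that degrades glycogen, had 9.52, 9.44 and 9.37 against 10.92, 11.25 and 10.57 and rose by 1.47 ± 0.21. Hexa, the alpha subunit of hexosaminidase, had 12.99, 13.12 and 13.09 against 13.83, 14.22 and 13.62 and rose by 0.82 ± 0.20. The groups were apart for each of these 5 genes.

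The remaining glycosidases did not pass. Neu1, the sialidase, differed by 0.69 ± 0.19 (adjusted p = 0.0530), with groups apart. Gusb, the beta-glucuronidase, differed by 0.74 ± 0.37, with 13.29 in mD1R replicate 1 but 11.65 in replicate 3, under all PBS arrays (11.72 to 11.79). Man2b1, an alpha-mannosidase, had 12.64, 12.80 and 12.84 with PBS and 12.64, 13.02 and 12.33 with mD1R, and its difference of -0.10 ± 0.21 was the smallest in size of all 43. Another Man2b1 probe set fell by 0.97 (adjusted p = 0.0277). Dropping PBS replicate 2 left 3 glycosidases past the threshold, dropping PBS replicate 3 left 0, and dropping any other array left 4 or more.

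Of 7 genes that handle lipids 3 were higher and 0 lower (median 0.79). Lipa, the acid lipase that frees cholesterol from its esters, had 10.54, 10.63 and 10.43 with PBS and 12.51, 12.84 and 11.71 with mD1R, a rise of 1.82 ± 0.28 (adjusted p = 0.0121). Npc1 and Npc2 pass that cholesterol out of the lysosome, one in the membrane and the other soluble. Npc1 had 9.99, 9.45 and 9.25 against 12.60, 11.33 and 10.55 and rose by 1.93 ± 0.48. Npc2 had 13.64, 13.98 and 13.95 against 14.57, 15.09 and 14.84 and rose by 0.98 ± 0.20. All 3 had separate groups, and the mD1R arrays of Npc1 were the most scattered of them.

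The other 4 genes of the group did not pass. Asah1, the acid ceramidase, differed by 0.79 ± 0.23 (adjusted p = 0.0602) and the acid sphingomyelinase gene Smpd1 by 0.40 ± 0.19, with groups apart in both. Psap, the precursor of the saposins, differed by 0.50 ± 0.22, while another Psap probe set rose by 1.08. Ppt1, which removes palmitate from proteins and is named to account for every gene, differed by 0.18 ± 0.19 with overlapping groups. The count that passed was 1 when PBS replicate 1 or 2 or mD1R replicate 2 was dropped, 0 when PBS replicate 3 was, 2 with arrays centred on their medians or with no variance trend and 5 with quantile normalization.

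Of 4 membrane proteins 3 were higher. Scarb2, which carries glucocerebrosidase to the lysosome, had 10.50, 10.74 and 10.68 with PBS and 12.12, 12.27 and 11.51 with mD1R, a rise of 1.33 ± 0.23 (adjusted p = 0.0149). Mcoln1, a calcium channel of the lysosome, had 9.24, 9.46 and 9.41 against 10.85, 10.52 and 10.44, a rise of 1.23 ± 0.19 (adjusted p = 0.0118). Lamp1 and Lamp2 are the abundant glycoproteins of the lysosomal membrane. Lamp1 had 13.22, 13.38 and 13.23 against 14.29, 14.63 and 13.99 and rose by 1.03 ± 0.20. Lamp2 had 12.93, 13.50 and 13.44 against 13.38, 13.71 and 13.58 and differed by 0.27 ± 0.21, which did not pass, with overlapping groups. Other Lamp2 probe sets gave 0.93, 0.82 and 0.03 and did not pass either. The count that passed was 1 when PBS replicate 1 or mD1R replicate 2 was dropped and 0 when PBS replicate 2 or 3 was.

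Of 11 proton pump genes 4 were higher and 0 lower, with a median of 0.68. All 11 differences were above 0, and the groups were apart for 10. Atp6v0d2 encodes an isoform of the d subunit of the V0 sector that is known from osteoclasts and macrophages. It had signals of 8.97, 6.49 and 7.04 with PBS and of 13.40, 12.68 and 9.21 with mD1R, a rise of 4.26 ± 1.07 (adjusted p = 0.0392). PBS replicate 1 and mD1R replicate 3 lay only a little apart, and its SDs of 1.30 and 2.24 were the largest of the 43 genes in both groups. Another probe set of Atp6v0d2 rose by 3.82. Its widely expressed paralogue Atp6v0d1 had 12.36, 12.82 and 12.85 against 13.38, 13.20 and 12.88 and differed by 0.47 ± 0.21, which did not pass (adjusted p = 0.179). The changes of the pair differed by 3.79 on the log2 scale with an exact permutation p of 0.2 (two-sided). The values of Atp6v0d2 minus Atp6v0d1 overlapped between the groups, with a gap of -0.28 from the highest PBS array to the lowest mD1R array. Since 3 against 3 arrays cannot go below 0.1, this test cannot say whether the isoforms changed differently.

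The other V0 genes did not pass, with 0.82 ± 0.39 for Atp6v0a1 and 0.62 ± 0.21 for Atp6v0b, which belongs to the proton-carrying ring. In the V1 sector 3 of 6 genes were higher. Atp6v1c1, whose product links the sectors, had 12.60, 12.91 and 12.92 with PBS and 14.24, 13.94 and 13.52 with mD1R and rose by 1.09 ± 0.22 (adjusted p = 0.0218). Atp6v1h, a regulatory subunit gene, had 10.86, 11.03 and 11.005 against 12.23, 11.93 and 11.63 and rose by 0.97 ± 0.20. Atp6v1a, the catalytic subunit gene, had 11.98, 12.56 and 12.47 against 13.59, 13.38 and 12.88 and rose by 0.95 ± 0.24. The groups of these 3 genes were apart, with replicate 1 highest and replicate 3 lowest among the mD1R arrays. Atp6v1b2 (0.68 ± 0.27), Atp6v1e1 (0.51 ± 0.22), Atp6v1d (0.36 ± 0.23) and the accessory subunit gene Atp6ap1 (0.43 ± 0.19) did not pass. No pump gene passed when any single PBS array or mD1R replicate 2 was left out, while 2 did without mD1R replicate 1, with no variance trend or with the mean of all probe sets of a gene, and 5 without mD1R replicate 3. Atp6v0d2 passed without mD1R replicate 3 but not when any other single array was left out, with robust variance or with no variance trend.

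**Figure D3:**
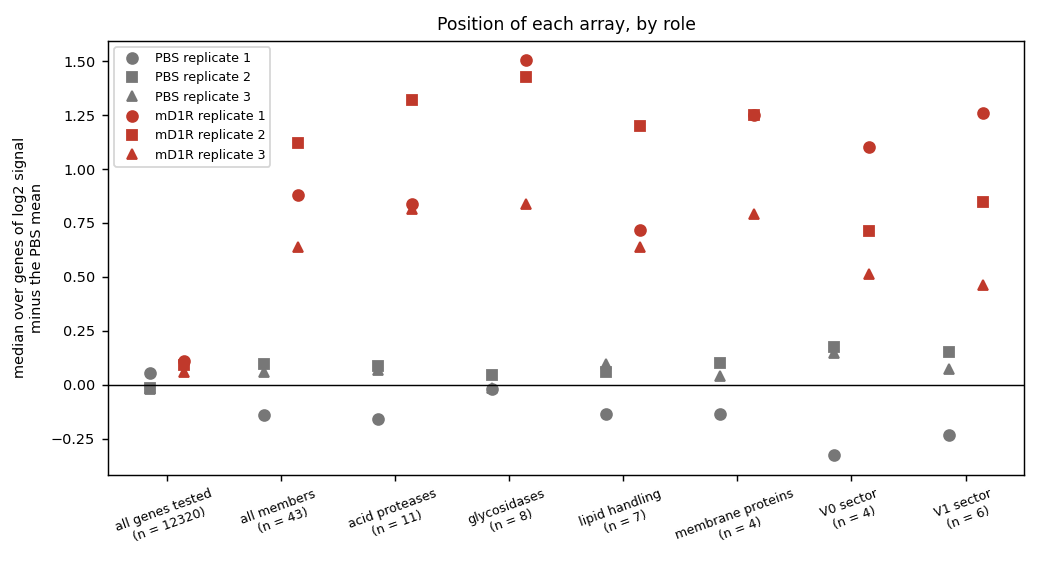
Median over the genes of each role of the log2 signal minus the PBS mean, for each array (PBS grey, mD1R red). For all members the mD1R arrays stand at 0.88, 1.12 and 0.64 for replicates 1, 2 and 3, while for all 12320 genes tested they stand at 0.11, 0.09 and 0.06.

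Neither regulator passed the threshold. Tfeb, which activates lysosomal genes when nutrients are scarce, had 8.90, 9.25 and 9.23 with PBS and 8.44, 8.56 and 8.51 with mD1R. Its difference of -0.63 ± 0.20 did not pass (adjusted p = 0.0759), although every mD1R array lay below every PBS array. It passed as lower with array weights and at an adjusted p under 0.10. Tfe3 had 9.58, 10.15 and 9.84 against 10.90, 10.43 and 10.19 and differed by 0.65 ± 0.25, which did not pass (adjusted p = 0.123). Of their relatives, Mitf, the factor of melanocytes, mast cells and osteoclasts, had 9.51, 9.11 and 9.18 against 11.94, 11.20 and 10.32 and rose by 1.89 ± 0.38 (adjusted p = 0.0206). Tfec had 11.17, 10.04 and 10.13 against 12.02, 10.71 and 10.23, with overlapping groups, and differed by 0.54 ± 0.48. Arrays measure mRNA, and the activity of these factors is set largely by where the protein sits in the cell.

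**Figure D4:**
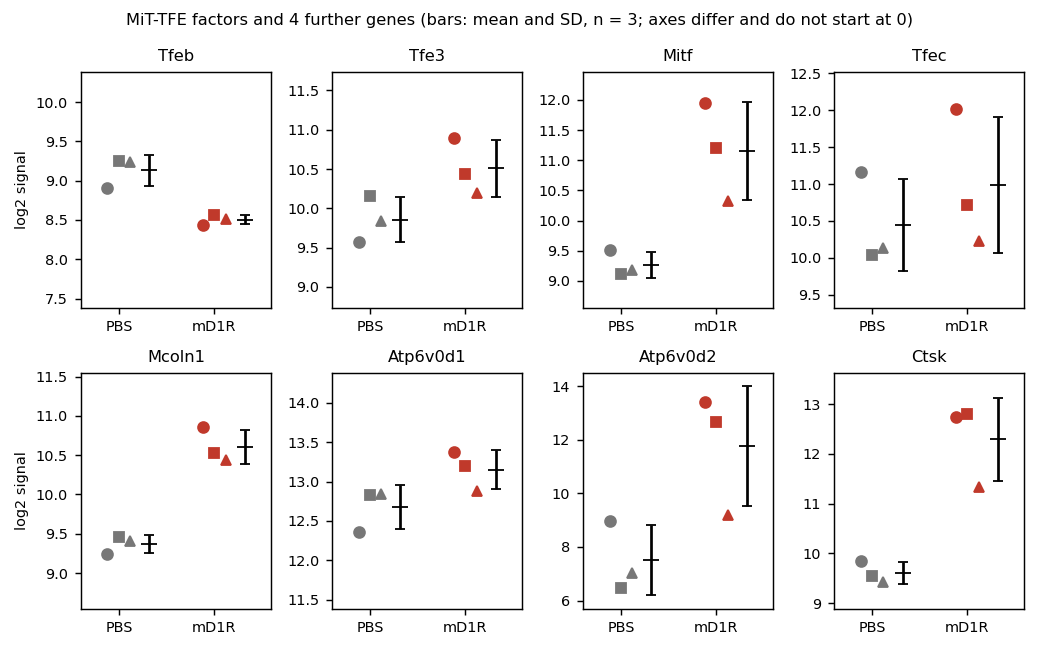
Log2 signal on each array for the related factors Tfeb, Tfe3, Mitf and Tfec and for Mcoln1, Atp6v0d1, Atp6v0d2 and Ctsk, with circles, squares and triangles for replicates 1, 2 and 3 and bars for the mean and SD (n = 3). Tfeb is lower and Mitf higher on all mD1R arrays, and Tfec overlaps between the groups.

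Other genes of the pathway, listed by function, were also more often higher than lower. Of 96 tested, 27 were higher and 1 lower (28.1% and 1.04%, against 8.49% and 7.09% of all genes), with a median of 0.46. Among 22 other hydrolases and cofactors 10 were higher, including the acid phosphatase gene Acp2 (2.12 ± 0.28), Plbd2 (1.73 ± 0.29) and the sulfatase gene Arsa (0.94 ± 0.17). Arsb, another sulfatase, was the gene that fell, from 12.29, 11.65 and 11.89 to 10.71, 10.26 and 10.58 (-1.43 ± 0.22). Acp5, the phosphatase that marks osteoclasts, rose by 1.85 ± 0.47, and the progranulin gene Grn differed by 0.36 ± 0.18 and did not pass. Of 16 other membrane proteins 7 were higher, with the smallest p for the macrophage glycoprotein gene Cd68 (1.74 ± 0.27), the chloride transporter gene Clcn7 (1.63 ± 0.30) and Laptm4b (1.002 ± 0.22). Of the 96, 11, 6 and 0 passed as higher when PBS replicate 1, 2 or 3 was dropped. Dropping mD1R replicate 1, 2 or 3 gave 17, 5 and 40, and the fit with no variance trend gave 15.

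Of 16 genes that deliver enzymes to lysosomes 1, Ap1s1 (0.69 ± 0.16), was higher, a share of 6.25% that lay near that of all genes. Of 9 other V-ATPase subunits 2 were higher, Tcirg1, the osteoclast form of the V0 a subunit (0.86 ± 0.20), and Atp6v0e (0.65 ± 0.18). Of 29 related factors, nutrient sensors and autophagy genes 5 were higher, among them the autophagy receptor gene Sqstm1 (1.41 ± 0.17), Gabarapl1 (1.54 ± 0.17) and, beside Mitf, Fnip2 (1.92 ± 0.32) and Rragc (1.04 ± 0.18), which act in amino acid sensing at the lysosome. Of 4 cathepsin inhibitors tested 2 were higher, Cstb (1.08 ± 0.20) and Cst7 (0.91 ± 0.22). Whether these lists differed from each other was not tested.

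**Figure D5:**
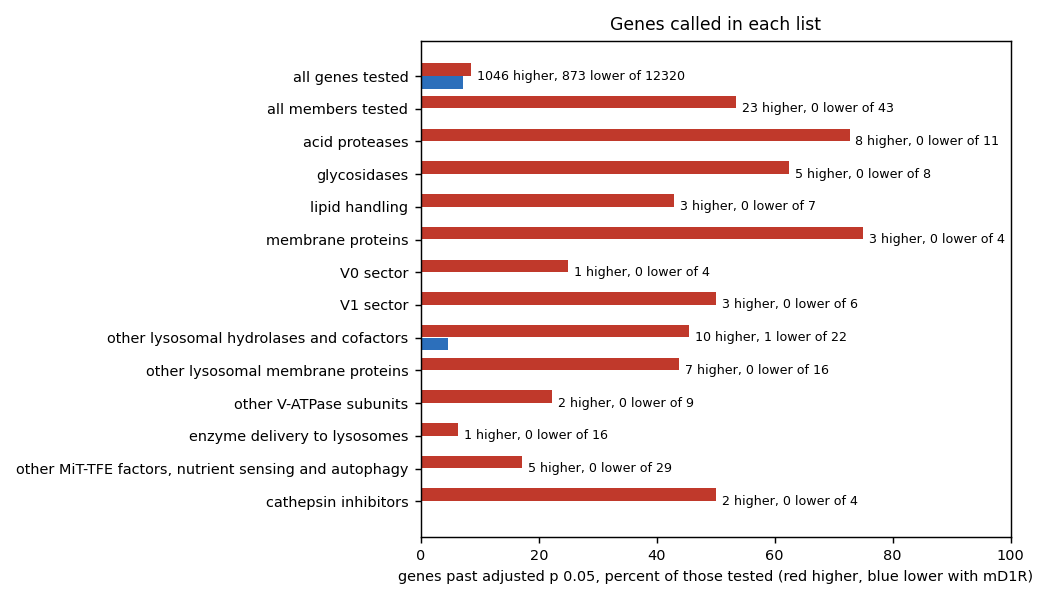
Percent of tested genes past an adjusted p of 0.05 in each list, higher with mD1R in red and lower in blue, with the counts beside the bars. The share higher is 53.5% of the 43 members and 8.49% of all genes tested.

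Markers of macrophages and of mast cells were among the genes higher with mD1R. Of 13 macrophage and monocyte markers 5 were higher and 0 lower, Msr1 (2.29), Ms4a7 (2.15), Adgre1 (1.82), Csf1r (1.09) and Mpeg1 (0.63). Among the 13 tested, the widest differences, 3.10 for Marco and -0.54 for Cx3cr1, did not pass. Cx3cr1 was lower on every mD1R array than on every PBS array. So was Vsig4 (-2.01), which was too dim to be tested. The summed linear signal of the 14 on the array ran from 44147 to 49776 with PBS and from 85013 to 141065 with mD1R. Of 14 mast cell and basophil markers 11 were higher and 0 lower, led by Mcpt4 (4.94), while Hdc (-1.34) did not pass, and the sum of 15 ran from 15145 to 24253 and from 70865 to 101227. Neither list had a marker at 0 on all arrays, and the part of these cells in the results was not tested. Of 7 osteoclast markers 1, Acp5, was higher and 1, Mmp9, lower (-4.38), with sums from 23136 to 27300 and from 8301 to 15015. The defining osteoclast genes Calcr, Ocstamp and Dcstamp were too dim to be tested, with signals of at most 6.96. Dcstamp was higher and Ocstamp lower on every mD1R array than on every PBS array, and Calcr overlapped. Of 8 dendritic cell markers 1 was higher, Ccr7 (1.51), and 4 lower, with Cd209a the lowest (-2.96), and sums from 2515 to 5657 and from 1588 to 9733. Of 10 neutrophil granule markers 0 were called either way in limma (4 had an unadjusted p under 0.05; Ltf -4.33, Mmp8 0.21), and 9 of the 10 differences were below 0, with sums from 261052 to 333404 and from 48165 to 334489. Of 5 endothelial markers 1, Pecam1, was higher (1.41), and Vwf had the widest difference (2.11) and did not pass, with sums from 952 to 1904 and from 2185 to 5237. Cdh5, Tek and Emcn were too dim to be tested. Cdh5 (-2.65) and Emcn (-1.41) were lower on every mD1R array than on every PBS array, while Tek overlapped.

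The other probe sets of the same genes gave like directions in most cases. For 29 genes a further probe set with the same symbol was bright enough to be tested, 49 in all, and 46 of these had the sign of the one used. Of the 49, 15 passed as higher and 1, of Man2b1, as lower. They share RNA with the probe sets used and are not independent of them.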

How the data were processed

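Labelled RNA of 6 samples was hybridised to Affymetrix 3′ expression arrays. The authors deposited log2 signals for 45101 probe sets. MAS5 is the tool given in the submitters' processing notes, without a version number. On the linear scale each array has a 2% trimmed mean of 500, computed here, so arrays had been scaled singly. MAS5 subtracts mismatch signal, which makes dim values noisy.

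Groups were compared with limma 3.58.1 (R 4.3.3; lmFit, eBayes with a variance trend, two-sided) over the 27022 non-control probe sets with a mean log2 signal at or above the 40th percentile (5.27), with Benjamini-Hochberg adjustment over all of them and no further scaling. A gene was read from its brightest probe set with 1 symbol in the platform annotation, and 12320 genes were tested. Errors are limma's standard errors, or SDs where named, and the number of arrays limits the precision. The members and lists were chosen with earlier results of these data known. Signals per array are given for members past the threshold and 8 fixed genes, and up to 3 others per role by smallest p. Per pathway list up to 3 genes in each direction by smallest p are named, with Mitf, Tfec, Tcirg1, Acp5 and Grn always. Per marker list the widest difference each way among the genes tested is named. Other names were chosen after their values were seen. Osteoclast and other marker lists hold genes that are also expressed elsewhere. Spike-in sets come from the BioB control relative to BioC, BioD and cre.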

Additional observations from a re-analysis of the deposited data

How the results depend on the processing

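The 43 genes were refitted under 19 alternatives that changed the threshold, the probe set taken for a gene, the weighting or scaling of arrays, the low-signal filter, the pseudocount, the variance model or the block (replicate number or spike-in set), or dropped 1 array. Over the 13 that keep all arrays, 17 to 27 genes were higher, and 13 of the 23 kept their call in each. With no variance trend 2 pump genes and 15 other pathway genes were higher, and over all genes 653 were higher and 526 lower. With array weights 1 member (Tfeb) and 6 pathway genes were lower, with 1907 higher and 1621 lower over all genes. At an adjusted p of 0.10, 1 member and 3 pathway genes were lower, with 1679 higher and 1415 lower over all genes. With the mean of a gene's probe sets 2 pump genes were higher, and with quantile normalization 2 pathway genes were lower. Whether the replicate numbers pair the samples is not known, as the labels do not say. Same-numbered deviations correlated at 0.31, 0.03 and 0.13, and 3 of 6 arrays correlated best with their own number, which does not settle it. With the replicate block 27 members were higher and 6 pathway genes lower, and 1415 genes were higher over the array. Leaving out each array, members higher ran from 0 to 28, members lower were 0 throughout, the median ran from 0.74 to 0.98, pump genes higher from 0 to 5, pathway genes higher from 0 to 40 and lower from 0 to 1, and all genes from 0 to 1560 higher and from 0 to 1427 lower. The cause was not tested. No direction of a called gene reversed in any alternative. Signal over background was not analysed, as detection calls were not used here.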

Other observations

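The order of the mD1R arrays differed between gene groups. The summed signal of mast cell and basophil markers was highest on mD1R replicate 3 (101227, against 70865 and 80595 on replicates 1 and 2), and that of macrophage and monocyte markers was lowest there (85013, against 116078 and 141065). Single mast cell and basophil markers did not share that order. Of the 14 tested, 7 were highest on replicate 3, among them the bright Mcpt8, Cpa3 and Fcer1a, and 6 were lowest there (Mcpt1, Mcpt2, Mcpt4, Cma1, Tpsg1 and Kit), as most lysosomal genes were. The lysosomal genes were lowest on that array in 32 of 43 cases, and 18 of the 23 that passed were. Neither count was made over all genes. Neutrophil granule markers summed to 334489 on replicate 3 and to 48165 and 150800 on the others. The SD among mD1R arrays was above that among PBS arrays for 34 of the 43 genes, with medians of 0.34 and 0.19. The SDs were not compared over all genes, so the wider spread is not shown to be particular to these 43.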
